A study of Mus musculus with 96 samples.

Results

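Pre-haematopoietic stem cells (pre-HSCs), taken at E11.5 from the aorta-gonad-mesonephros (AGM) region, and haematopoietic stem cells (HSCs) of the fetal liver at E14.5 were compared gene by gene and cell by cell. Cells were chosen by their label, and an E14.5 cell was left out where Slc4a1, the anion exchanger of the red cell membrane, exceeded 100 CPM (the reads of a gene, scaled so that every cell has the same total). That rule kept 12 of 16 E14.5 cells. With the 48 AGM cells, 60 of the 96 cells of the series enter the comparison.

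All embryos were C57BL/6 mice, and the labels give no genetic change or treatment. Each sample is 1 cell sorted into 1 well and turned into cDNA with a SMART-Seq kit, which copies polyadenylated RNA. AGM cells were sorted as Ter119-CD11b-CD144+c-kit+EPCR+, and E14.5 liver cells as Ter119-Sca-1+c-kit+CD48-CD150+. Tissue, age and gate thus change together, and their parts in any difference cannot be told apart. The 16 E12.5 liver cells, sorted by Sca-1, c-kit and EPCR after exclusion of Ter119, are given beside them for some genes. The labels name no animal, litter or sort. Each group is therefore 1 sample, no test was possible, and differences are described against the spread between cells.

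HSCs arise in the wall of the dorsal aorta, where haemogenic endothelial cells turn into blood cells and bud into the vessel. Pre-HSCs are the intermediates: they still carry endothelial surface proteins such as VE-cadherin (CD144), have begun to carry blood proteins, and need further maturation before they can repopulate an adult. The fetal liver receives these cells and is where HSCs expand in number before they move to the bone marrow.

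The E14.5 cells that were left out, numbers 3, 8, 13 and 16, had between 220.7 and 485.7 CPM of Slc4a1. No kept E14.5 cell, AGM cell or E12.5 cell had a read of it. Globin genes took between 4.42% and 23.1% of the reads of the left-out cells and at most 0.151% of those of a kept cell. The kept E14.5 cells had between 626645 and 1926882 reads each and the AGM cells between 267500 and 1889909. A median of 5095 genes was detected per E14.5 cell (2924 to 6106) and of 5522.5 per AGM cell (3486 to 11094). After thinning each cell to 600000 reads the medians were 4826.5 and 5257, with 5 AGM cells too shallow to enter. Pooled values are the reads of a gene summed over the cells of a group, as CPM. Their exact 95% Poisson intervals, given in brackets, cover counting error only.

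The sort marker genes serve as a check of the labels. Cdh5, which encodes VE-cadherin, ran from 0 over a median of 35.3 to 283.1 CPM in AGM cells, with reads in 45 of 48. In E14.5 liver it had reads in 1 of 12 cells, at 2.08 CPM, and 42 AGM cells lay above that cell. The pooled values were 48.5 CPM (46.8 to 50.3) in AGM and 0.246 CPM (0.0672 to 0.631) in E14.5 liver. Procr, the gene of EPCR, had a median of 179.3 CPM over AGM cells and of 0 over E14.5 cells. E14.5 cells 5, 9 and 14 had 215.3, 818.6 and 695.1 CPM of it, cell 4 had 0.519 CPM and the other 8 had no read. Pooled Procr was 296.3 CPM in AGM and 129.9 CPM in E14.5 liver, or 51.9 CPM without cell 9. Procr and Cdh5 were read together in 38 of 48 AGM cells and in 1 of 12 E14.5 cells.

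Kit, the stem cell factor receptor and part of both gates, had reads in 11 of 12 E14.5 cells and 43 of 48 AGM cells. Its pooled level was 149.9 CPM (144.01 to 155.99) and 93.1 CPM (90.6 to 95.5), and 1 E14.5 cell lay above every AGM cell. Ly6a, the gene of Sca-1, ran from 0 over 60.9 to 559.6 CPM in E14.5 cells. AGM cells had a median of 0, and 3 E14.5 cells lay above all of them. Pooled, it was 92.1 CPM in E14.5 liver, 225.8 CPM at E12.5 and 31.3 CPM in AGM. Itgam, the gene of CD11b, stayed low in both, at 1.54 and 1.48 CPM, the former 0.513 CPM without E14.5 cell 2.

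The RNA of the kept E14.5 cells followed the CD48 and CD150 part of their gate only in part. Slamf1, the gene of CD150, had reads in E14.5 cells 4 and 9, at 38.9 and 188.3 CPM, and in no other kept E14.5 cell. No AGM cell had a read, which allows a share of up to 6.25%. Among the left-out E14.5 cells there were reads too, and with all 16 the log2 ratio went from 4.63 to 6.03. Pooled Slamf1 in the kept E14.5 cells was at least 478-fold above the floor of 3 reads over the AGM group, and its 23.8 CPM came down to 5.14 CPM without cell 9. Cd48, whose protein the gate excluded, had reads in E14.5 cells 6, 7, 11 and 15, at 116.2, 492.5, 228.8 and 532.9 CPM. In AGM it had reads in 2 of 48 cells, at most 14.3 CPM. No E14.5 or AGM cell had reads of both Cd48 and Slamf1, and Kit, Ly6a and Slamf1 were read together in 1 of 12 E14.5 cells. A cell without a read may still carry the protein. Because of these values the kept cells are called E14.5 liver cells below.

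**Figure D1:**
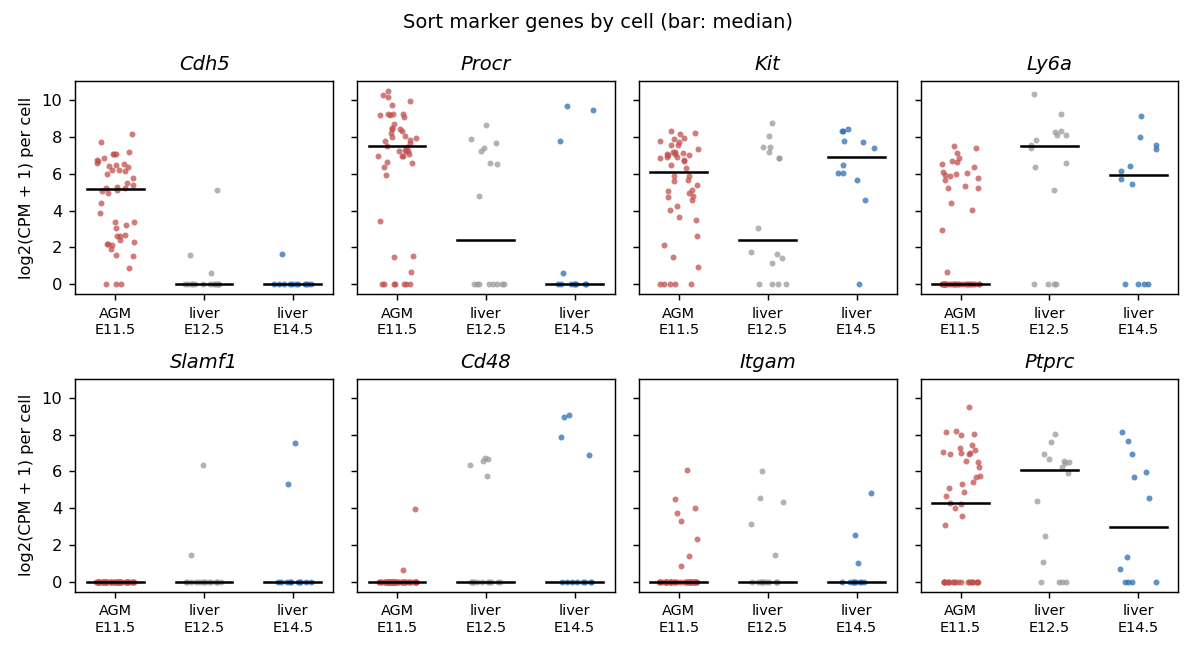
Level of 8 sort marker genes in each cell, as log2 of CPM plus 1, in 48 E11.5 AGM cells, 16 E12.5 liver cells and the 12 kept E14.5 liver cells. Each point is 1 cell and each bar a group median. Cdh5 was read in 45 of 48 AGM cells and 1 of 12 E14.5 cells, whereas Slamf1 was read in 2 E14.5 cells and Cd48 in 4 others.

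Over the 14260 genes with at least 30 reads in the 60 cells, 2258 were at least 2-fold higher in E14.5 liver and 4188 at least 2-fold lower, by the pooled CPM after 1 CPM was added. These are 15.8% and 29.4% of the genes, the background for the counts within a list. The median log2 ratio of E14.5 liver over AGM was −0.28. With 10 CPM added the counts were 1063 higher and 1143 lower, so that higher genes made up 48.2% of those past 2-fold in place of 35.03%. No read in any E14.5 cell was found for 3300 genes (23.1%), and no read in any AGM cell for 1.26% of the genes. The E14.5 group held 16229574 reads and the AGM group 60280645. With AGM cells numbered 1 to 12 only, a comparison chosen after seeing the data, 2237 of 12454 genes were higher and 3810 lower, and 1859 and 345 had no read in E14.5 and AGM cells. Lists are described by their counts and medians beside these values, with no test. Counts of cells above every cell of the other group were made for named and listed genes only, with no share over all genes.

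An AGM cell typically had reads of more endothelial genes than an E14.5 cell, and of about as many haematopoietic genes. Of 51 endothelial genes on 4 lists (receptors, arterial and Notch genes, transcription factors, junction and surface genes), the lowest, median and highest E14.5 cell had reads of 7, 13 and 19. AGM cells had 13, 23.5 and 50, and 34 of 48 lay above the highest E14.5 cell. The 51 include Cdh5 and Procr, whose proteins were part of the AGM gate. After thinning to 600000 reads the values were 7, 13 and 19 in E14.5 liver and 13, 23 and 50 in AGM. E12.5 cells, unthinned, had 2, 13 and 36. Of 32 haematopoietic genes, E14.5 cells had reads of 16, 23 and 26 and AGM cells of 10, 21 and 29, and these ranges overlapped. AGM cells 36, 1, 3 and 5 had 50, 47, 43 and 41 endothelial genes, and AGM cell 3 had 13 haematopoietic ones.

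**Figure D2:**
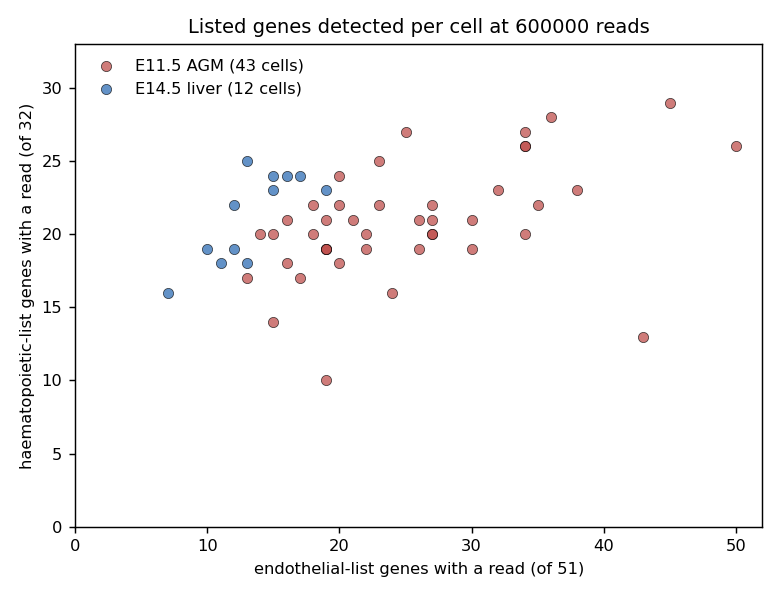
Number of endothelial genes (x axis, of 51) and haematopoietic genes (y axis, of 32) with a read in each cell after thinning to 600000 reads. Each point is 1 of 12 E14.5 liver cells or 43 AGM cells. E14.5 cells lie between 7 and 19 on the x axis and AGM cells between 13 and 50, while the y ranges overlap.

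Receptors through which endothelial cells sense VEGF, angiopoietins and BMP9 were lower in E14.5 liver. Of 10 such genes, 9 were at least 2-fold lower and 1 at least 2-fold higher, with a median log2 ratio of −2.31. Leaving out E14.5 cell 2 gave −2.98, and leaving out cell 9 gave −2.93. Kdr, the main VEGF receptor of endothelium, had 38.95 CPM in AGM, with reads in 24 of 48 cells and up to 653.6 CPM in a cell. It had 1 read in all E14.5 cells, a ratio of 632 with a counting interval of 113.3 to 24980. Acvrl1, which encodes the BMP9 receptor ALK1, had reads in 11 of 48 AGM cells. It had none in any E14.5 cell, which allows a share of up to 25%, so the shares of cells do not separate the groups. Pooled Acvrl1 was at least 115.3-fold higher in AGM, a bound that covers counting error only.

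Single cells carried part of this list. Nrp1 and Nrp2, coreceptors of VEGF, had log2 ratios of −5.50 and −3.52, which were −4.53 without AGM cell 3 and −1.35 without AGM cell 41. Robo4, a guidance receptor of endothelium, was the gene that was higher in E14.5 liver, at 39.2 against 5.94 CPM, with reads in 3 of 12 and 7 of 48 cells. Its log2 ratio of 2.54 was 1.57 without E14.5 cell 9, 1.73 after thinning and 1.94 without the deepest cell of each group.

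Genes of the arterial programme and the Notch pathway were nearly absent from E14.5 liver cells. Notch receptors on one cell are activated by Jagged and Delta-like ligands on its neighbour, and in the aorta this signal is required both for arterial identity and for blood stem cell emergence. None of the 14 listed genes was 2-fold higher, 11 were at least 2-fold lower, and 10 had no read in any of the 12 cells. The median log2 ratio was −3.09, or −4.99 with genes at 0 set at the floor of 3 reads. Hes1, a transcriptional repressor and direct Notch target, ran from 0 over 143.7 to 694.9 CPM in AGM cells, with reads in 46 of 48. It had no read in any E14.5 cell, which allows a share of up to 25%, so the groups overlapped only through the AGM cells at 0. Its pooled level was 164.1 CPM (160.9 to 167.3) in AGM, at least 888-fold above E14.5 liver, and 10.97 CPM at E12.5.

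The ligand gene Dll4 and the target gene Hey1 were read in fewer cells. Dll4 had 50.1 CPM in AGM from 17 of 48 cells and was at least 271-fold higher there. Hey1, read in 15 AGM cells at up to 614.5 CPM, was at least 189.4-fold higher. Gja4, which encodes the arterial gap junction protein connexin 37, rested on AGM cell 3, without which its 86.2 CPM came down to 16.4 CPM. Gja4 and Hey1 had no read in any E12.5 or E14.5 cell.

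Endothelial transcription factors were divided. Of 12, 6 were at least 2-fold lower and none 2-fold higher, with a median log2 ratio of −0.98. Sox17, which marks arterial and haemogenic endothelium, had 33.1 CPM in AGM from 12 cells, 32.2 CPM at E12.5 and no read at E14.5. Foxo1, a factor restrained by PI3 kinase signalling, had 24.3 CPM from 19 AGM cells and no read in E14.5 liver. Ets2 had 59.3 CPM in AGM and 9.55 CPM in E14.5 liver. Ets1 had 21.2 and 4.37 CPM, the latter 0.755 CPM without E14.5 cell 9. By contrast Hhex, a homeobox factor shared by endothelium and blood progenitors, had reads in 12 of 12 E14.5 cells and 45 of 48 AGM cells, at 262.9 and 144.6 CPM. Mef2c was read in every cell of both groups, with medians of 140.3 and 189.6 CPM.

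Cldn5, the claudin that seals endothelial tight junctions, had the largest log2 ratio on the 4 endothelial lists, at −7.49. It had reads in 31 of 48 AGM cells, a median of 47.8 CPM and a highest cell of 2243 CPM. No E14.5 cell had a read, and pooled Cldn5 was at least 965-fold higher in AGM at 178.4 CPM (175.1 to 181.8). Tjp1, a scaffold of tight junctions, was read in 33 AGM cells and no E14.5 cell. Plvap, a component of endothelial fenestrae, had 308.1 CPM in AGM and 16.4 CPM in E14.5 liver, or 1.85 CPM without E14.5 cell 12.

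Most junction and surface genes of endothelium were lower in E14.5 liver. Of the 15 junction and surface genes, 9 were at least 2-fold lower and none 2-fold higher, with a median of −1.44 that was −2.27 without E14.5 cell 9. Cdh5 and Procr, among the 9, encode proteins of the AGM gate. Cgnl1, a junction protein, had 0.308 CPM in E14.5 liver against 26.7 CPM in AGM, and Jam2, a junctional adhesion molecule, had no E14.5 read against 10.97 CPM. Ramp2, which forms the adrenomedullin receptor, and Pecam1, the gene of CD31, had log2 ratios of −2.43 and −1.44, the latter −2.06 without the deepest cell of each group. Egfl7, Cd34 and Emcn, chosen after their values were seen, were within 2-fold. Egfl7, a secreted vascular factor, was read in all 60 cells, with medians of 789.3 CPM in E14.5 and 678.6 CPM in AGM cells. Cd34, a sialomucin of both endothelium and progenitors, had reads in 12 of 12 and 47 of 48 cells at 710.9 and 1064 CPM. Emcn, which encodes endomucin, had 178.8 and 186.97 CPM.

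Matrix genes had a median log2 ratio of −3.50, or −4.76 with genes at 0 set at the floor. Of 16 genes for basement membrane and other matrix proteins, 15 were at least 2-fold lower and none was 2-fold higher. Fn1, which encodes fibronectin, was read in 45 of 48 AGM cells with a median of 296.4 CPM. In E14.5 liver it was read in cells 5 and 9, at 39.4 and 216.2 CPM, and in no other cell. Pooled Fn1 was 359.5 CPM (354.7 to 364.3) against 25.1 CPM (22.8 to 27.7), the latter 3.50 CPM without cell 9.

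The proteases and chains of the basement membrane followed. Mmp2, a gelatinase that cuts it, had reads in 29 AGM cells, none in any E12.5 or E14.5 liver cell, and was at least 615-fold higher in AGM than at E14.5. Timp3, a matrix-bound inhibitor of such proteases, had 48.5 CPM in AGM and 1 read in E14.5 liver, a ratio of 788 (141.3 to 31126). Lamb1, a laminin chain, had 22.8 CPM in AGM and no E14.5 read. Col4a2, a collagen IV chain, had 100.96 against 5.42 CPM, the latter 3.23 CPM without E14.5 cell 11. Its log2 ratio of −3.99 was −3.32 with all 16 E14.5 cells.

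**Figure D3:**
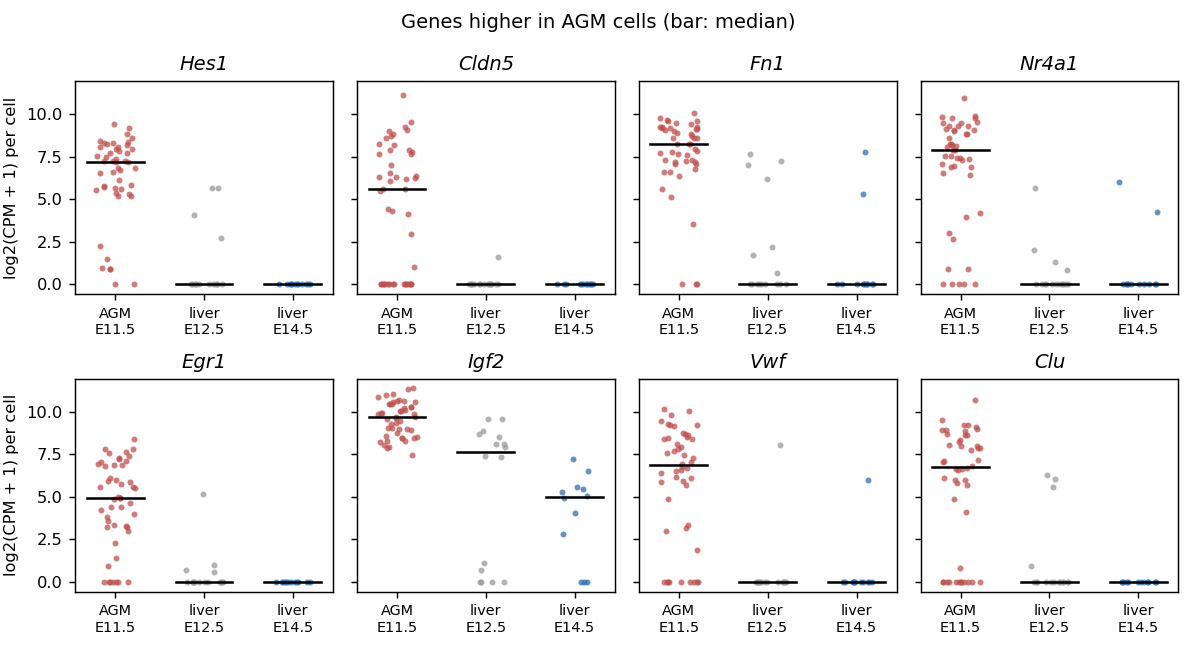
Level per cell, as log2 of CPM plus 1, of 8 genes that were higher in AGM: Hes1, Cldn5, Fn1, Nr4a1, Egr1, Igf2, Vwf and Clu. Each point is 1 cell and each bar a group median. Hes1, Cldn5, Egr1 and Clu had no read in any E14.5 cell, and all 48 AGM cells had reads of Igf2.

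Immediate-early genes were also lower in E14.5 liver. These genes encode short-lived transcription factors and feedback regulators that are induced within minutes by growth factors, shear stress or cell handling. Of 21, 16 were at least 2-fold lower and none was 2-fold higher, with a median of −2.82. E14.5 cells had a median of 6.5 and AGM cells of 16 of these genes with a read. Egr1 was read in 41 of 48 AGM cells with a median of 29.99 CPM and a highest cell of 332.2 CPM, and in no E14.5 cell. Nr4a1, an orphan nuclear receptor, had a median of 238.1 CPM over AGM cells and reads in 2 of 12 E14.5 cells, at up to 63.4 CPM. Pooled Nr4a1 was 372.6 against 7.46 CPM, the latter 2.03 CPM without E14.5 cell 1. Atf3 and Fosb had no read in E14.5 liver and were at least 471-fold and 297-fold higher in AGM. Nr4a2 had 8 reads, all in 1 E14.5 cell, against reads in 39 AGM cells, and its log2 ratio of −6.23 was −6.85 without the deepest cell of each group.

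Some members of this list did not follow it. Jun was at 120.03 CPM in E14.5 liver and 82.8 CPM in AGM. Myc was at 141.8 and 162.2 CPM, with a log2 ratio of −0.19 that was −0.87 without E14.5 cell 11. Klf2 was at 31.7 and 42.2 CPM, the former 20.6 CPM without E14.5 cell 9. Of 12 heat shock and chaperone genes, 6 were at least 2-fold lower and none was 2-fold higher, with a median of −0.91. Dnajb1, a cochaperone, had 200.3 CPM in AGM and 57.5 CPM in E14.5 liver. How cells of each stage were dissociated was not tested for its part in these values.

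Haematopoietic transcription factors differed less. Of 15, 4 were at least 2-fold higher and none 2-fold lower, with a median of 0.18. Runx1, which is required for blood cells to emerge from endothelium, had reads in 9 of 12 and 42 of 48 cells, with medians of 43.9 CPM in E14.5 and 77.7 CPM in AGM cells. Spi1, the gene of the myeloid and lymphoid factor PU.1, had 407.5 and 434.6 CPM. Lmo2, a bridging partner of GATA and E-box factors, was read in 12 of 12 and 46 of 48 cells at 625.6 and 296.5 CPM. Myb, a factor of progenitor proliferation, was at 132.4 and 64.9 CPM. The repressor genes Gfi1b and Gfi1, which silence the endothelial programme as blood cells form, leaned on 1 cell each. Gfi1b had a log2 ratio of 1.83, which was 0.79 without E14.5 cell 7, and Gfi1 one of 1.21, which was 0.20 without E14.5 cell 14, 1.85 after thinning and 1.80 from the mean of each cell's CPM.

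Genes of the leukocyte surface and signalling were higher in part. Of 17, 7 were at least 2-fold higher and 1 at least 2-fold lower, with a median of 0.48. Rac2, a GTPase of blood cells that drives their migration, was read in 12 of 12 E14.5 cells, between 716.3 and 1895 CPM. AGM cells ran from 0 over 227.7 to 1096 CPM, and 6 E14.5 cells lay above all of them. The pooled values were 1219 CPM in E14.5 liver, 957.5 CPM at E12.5 and 284.9 CPM in AGM. Selplg, the ligand through which blood cells roll on selectins, had reads in 11 of 12 and 20 of 48 cells at 298.1 and 59.5 CPM. Its log2 ratio of 2.31 was 2.91 without AGM cell 41. Cd53, a tetraspanin, had a log2 ratio of 2.08, or 2.87 without AGM cell 40. Ptprc, which encodes CD45, was not among the higher genes, at 63.9 CPM in E14.5 liver and 72.7 CPM in AGM.

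**Figure D4:**
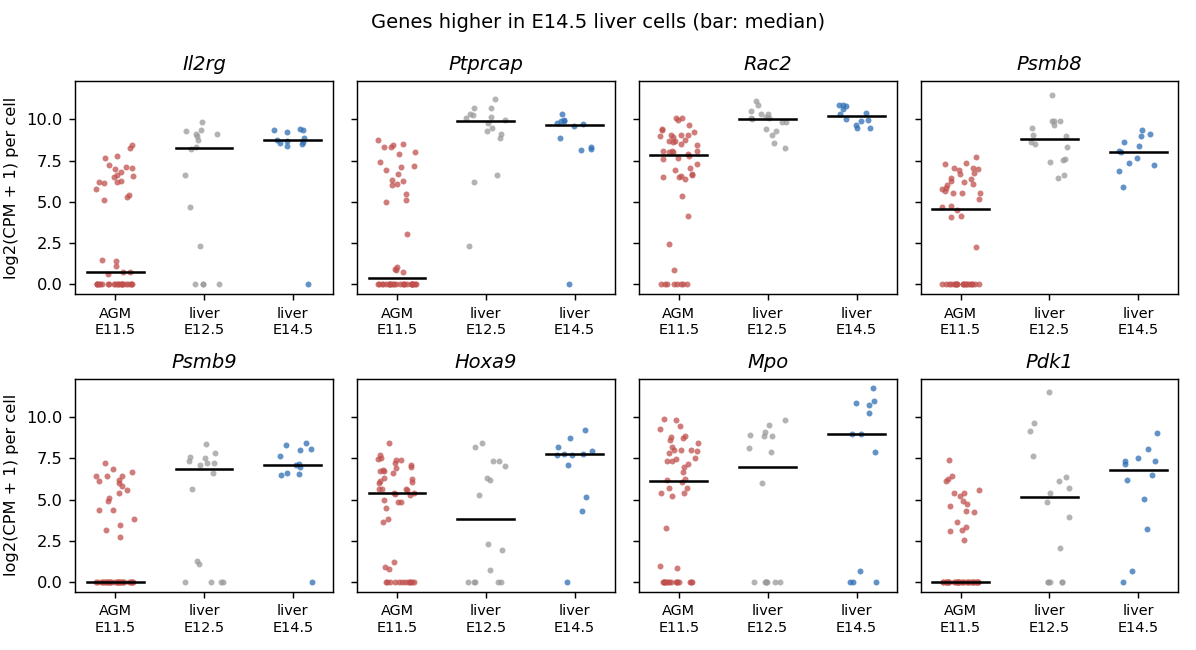
Level per cell, as log2 of CPM plus 1, of 8 genes that were higher in E14.5 liver: Il2rg, Ptprcap, Rac2, Psmb8, Psmb9, Hoxa9, Mpo and Pdk1. Each point is 1 cell and each bar a group median. For Il2rg 10 of 12 E14.5 cells, and for Ptprcap 8, lay above every AGM cell.

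Genes used to describe HSCs went both ways. Of 18, 6 were at least 2-fold higher and 3 at least 2-fold lower, with a median of 0.56. Slamf1 and Ly6a, among the 6, and Kit encode proteins of the E14.5 gate, so the list is not independent of the sort. Hoxa9, a homeobox gene of progenitor expansion, ran from 0 over 212.9 to 585.6 CPM in E14.5 cells, with reads in 11 of 12. AGM cells ran from 0 over 41.02 to 343.6 CPM, with reads in 36 of 48, and the pooled values were 206.7 and 64.4 CPM. Ctnnal1, a catenin relative, had 122.3 and 31.3 CPM, the former 66.8 CPM without cell 9. Tcf15, a factor tied to HSC quiescence in adult marrow, was lower at 3.76 against 42.2 CPM, the former 1.42 CPM without cell 1.

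Several regulators of stem cell identity were within 2-fold. Meis1 was at 76.9 CPM in E14.5 liver and 63.6 CPM in AGM, and Angpt1 at 103.5 and 97.3 CPM. Hlf had a log2 ratio of 0.06 and Mecom of 0.52, which came to −0.64 and −0.30 without E14.5 cell 4. Without the deepest cell of each group they were −0.63 and −0.30. Prdm16, a gene that was past 2-fold, changed sign from 1.53 to −0.61 without E14.5 cell 12, and was 2.25 without AGM cell 42.

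Antigen presentation genes were higher. MHC class I molecules show peptides at the cell surface: the immunoproteasome subunits Psmb8, Psmb9 and Psmb10 cut the peptides, Tap1 and Tap2 carry them into the endoplasmic reticulum, and B2m is the light chain of the complex. Of 12 tested genes, 7 were at least 2-fold higher and none 2-fold lower, with a median of 1.38 that was 0.74 without E14.5 cell 9. Psmb8 ran from 57.9 over 263.8 to 661.5 CPM in E14.5 cells. In AGM it was read in 28 of 48 cells, at a median of 23.3 and at most 214.2 CPM, and 7 E14.5 cells lay above all of them. Pooled, Psmb8 was 288.2 CPM in E14.5 liver, 475.1 CPM at E12.5 and 42.9 CPM in AGM.

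The remaining MHC genes had a wider spread. Psmb9 had 172.2 and 24.8 CPM, with reads in 11 of 12 and 20 of 48 cells. H2-T23, a nonclassical class I heavy chain recognised by natural killer cells, had 135.6 and 9.17 CPM, with reads in 6 of 12 and 10 of 48 cells, and a log2 ratio of 3.75 that was 4.36 without AGM cell 32. Tap2 had 83.1 and 9.80 CPM. Tap1 had a log2 ratio of 1.80 from 2 and 8 cells. Leaving out E14.5 cell 9 gave 0.79, E14.5 cell 7 1.13 and AGM cell 28 2.57. B2m was read in every cell, at medians of 582.5 and 424.9 CPM, and Psme1, a proteasome activator subunit, had medians of 842.1 and 480.8 CPM.

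Promoter sequences were set beside these genes because interferon-driven transcription acts through a short element, the interferon-stimulated response element (ISRE). The RefSeq promoter windows (build GRCm38.p6) run from 250 bases before to 50 after a start site, and 11 of the 13 listed MHC genes had one. An ISRE core, GAAA followed by any 2 bases and GAAA on either strand, was found for 3 of 11 genes (27.3%) and for 3.99% of all 27025 genes with a window. A match describes letters and shows no binding. Only exact letters were counted, so a window without a match, such as those of H2-K1 and H2-D1, may still hold a variant. The 3 windows with a match are printed on the gene's strand with the match in capitals. B2m lies at chr2:122147437-122147736 on the plus strand, H2-T23 at chr17:36032652-36032951 on the minus strand and Psme1 at chr14:55578244-55578543 on the plus strand.
B2m: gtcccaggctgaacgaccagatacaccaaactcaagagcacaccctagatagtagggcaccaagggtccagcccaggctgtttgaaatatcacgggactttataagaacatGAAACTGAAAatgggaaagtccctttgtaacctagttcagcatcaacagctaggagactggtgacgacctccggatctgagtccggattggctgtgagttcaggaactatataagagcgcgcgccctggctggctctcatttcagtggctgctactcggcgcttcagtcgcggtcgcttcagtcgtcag
H2-T23: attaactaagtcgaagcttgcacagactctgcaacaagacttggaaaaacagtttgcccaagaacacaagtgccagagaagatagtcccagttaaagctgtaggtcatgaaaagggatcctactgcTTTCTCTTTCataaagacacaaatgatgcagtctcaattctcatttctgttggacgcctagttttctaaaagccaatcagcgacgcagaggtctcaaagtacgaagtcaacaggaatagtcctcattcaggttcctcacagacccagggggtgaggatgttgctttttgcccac
Psme1: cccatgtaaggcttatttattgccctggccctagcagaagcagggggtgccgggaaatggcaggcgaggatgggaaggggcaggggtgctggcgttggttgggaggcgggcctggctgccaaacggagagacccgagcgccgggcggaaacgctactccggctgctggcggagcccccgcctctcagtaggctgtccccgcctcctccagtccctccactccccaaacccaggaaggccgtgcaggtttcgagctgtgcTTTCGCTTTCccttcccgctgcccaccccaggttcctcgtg

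The matches begin at base 112 of the B2m window, 127 of the H2-T23 window and 260 of the Psme1 window, and in the last 2 the core is on the opposite strand. Pooled log2 ratios of these genes were 0.66, 3.75 and 0.56, so of these H2-T23 alone was past 2-fold. Interferon signalling genes had a median of −0.20, against −0.28 over all genes, with 3 of 16 at least 2-fold higher and 3 at least 2-fold lower. Irf9, a subunit of the factor that binds ISREs, had 61.6 and 15.4 CPM. Stat2, its partner, had no read in E14.5 liver and 7.07 CPM in AGM, or 4.36 CPM without AGM cell 17. Irf1 had 31.7 and 85.1 CPM, the former 6.23 CPM without E14.5 cell 5.

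Cell cycle genes were somewhat higher in E14.5 liver. Of 19 DNA replication genes none was past 2-fold in either direction, while 16 had a log2 ratio above 0, with a median of 0.62. Mcm5, a subunit of the replicative helicase, was at 596.1 and 311.6 CPM. Of 18 mitosis genes, 7 were at least 2-fold higher and 1 at least 2-fold lower, with a median of 0.78. Plk1, a kinase of mitotic entry, ran from 0 over 119.8 to 728.8 CPM in E14.5 cells, with reads in 7 of 12. AGM cells had reads in 18 of 48, a median of 0 and at most 386.3 CPM. Aurka and Aurkb, kinases of the spindle and the chromosomes, had log2 ratios of 1.91 and 1.41. Bub1b, a checkpoint gene, was lower at 18.1 against 53.5 CPM, the former 2.69 CPM without E14.5 cell 6. With all 16 E14.5 cells its log2 ratio went from −1.52 to −0.43, within 2-fold.

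Inhibitors of the cycle and D-type cyclins had a median of −0.70 over 8 genes, with 3 at least 2-fold lower and none 2-fold higher. Cdkn1a, which encodes the inhibitor p21, was read in 31 of 48 AGM cells and no E14.5 cell, and was at least 247-fold higher in AGM at 45.6 CPM. Cdkn1c, the imprinted inhibitor p57, had reads in 9 of 12 and 47 of 48 cells at 122.5 and 437.04 CPM. Ccnd2, a cyclin that starts the cycle, was at 281.9 and 578.4 CPM.

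Imprinted growth genes were lower, with Dlk1 as the exception. Of 13, 10 were at least 2-fold lower and 1 at least 2-fold higher, with a median of −2.16. Igf2, a fetal growth factor expressed from the paternal allele, ran from 172.01 over 823.1 to 2649 CPM in AGM cells. E14.5 cells ran from 0 over 31.2 to 146.8 CPM, so the highest E14.5 cell lay below the lowest AGM cell. How many of all genes separate the cells in this way was not counted. Pooled Igf2 was 885.8 CPM in AGM, 286.7 CPM at E12.5 and 35.5 CPM in E14.5 liver. H19, its maternally expressed neighbour, was at 503.5, 161.1 and 86.3 CPM in the same order. Mest had no read in E14.5 liver and was at least 1001-fold higher in AGM, where 17 of 48 cells had reads. Peg3 had 50.4 CPM in AGM and 2.77 CPM in E14.5 liver, which was 0 without cell 4. Without the deepest cell of each group its log2 ratio went from −3.77 to −5.36. Dlk1, a membrane protein related to Notch ligands, had 170.4 CPM in E14.5 liver and 23.9 CPM in AGM, with reads in 9 of 12 and 17 of 48 cells.

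The Lin28 axis holds blood progenitors in a fetal state. None of its 7 tested genes was past 2-fold, and the median was 0.26. Hmga2 was read in every cell of both groups, at 113.6 and 194.2 CPM, and Igf2bp3 was at 52.8 and 43.99 CPM. Lin28b had 42.4 and 24.2 CPM, and its log2 ratio of 0.78 came to 0.01 when E14.5 cell 1 was left out and to 0.14 when cell 11 was.

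Genes listed for the BMP and TGF-beta response, which include receptors and SMAD transducers, were mostly lower in E14.5 liver. Of 14, 7 were at least 2-fold lower and 1 at least 2-fold higher, with a median of −1.43 that was −2.02 without E14.5 cell 1. Id3, an inhibitor of E-box factors and direct BMP target, was read in 40 of 48 AGM cells, at a median of 238.95 and at most 4292 CPM. In E14.5 liver 2 cells had reads, and pooled Id3 was 22.4 CPM against 625.5 CPM, the former 0.134 CPM without cell 10. Tgfbr2, the ligand-binding TGF-beta receptor, had 1.73 and 33.6 CPM, the former 0.192 CPM without cell 2. Its log2 ratio of −3.67 was −2.27 with all 16 E14.5 cells, −2.98 after thinning and −3.03 from the mean of each cell's CPM.

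Adhesion and homing receptors went both ways, with 5 of 15 at least 2-fold higher, 5 at least 2-fold lower and a median of −0.35. Itga5 and Itgb3, integrin chains of fibronectin and vitronectin receptors, had reads in 33 and 30 of 48 AGM cells and in no kept E14.5 cell. With all 16 E14.5 cells the log2 ratio of Itga5 went from −5.57 to −2.23. Itgb1, the beta chain that pairs with Itga5, was lower at 78.1 against 230.8 CPM, the former 48.8 CPM without E14.5 cell 7. Itga9, which pairs with Itgb1, was higher with a log2 ratio of 1.22, which was 0.47 without E14.5 cell 5, 0.60 without E14.5 cell 9 and 2.02 without AGM cell 46. Itgal and Itgb2, which pair as the leukocyte integrin LFA-1, were higher in E14.5 liver. Itgal was at 44.4 against 1.82 CPM from 3 cells of each group, and its log2 ratio of 4.01 was 2.94 without E14.5 cell 12 and 5.37 without AGM cell 34. Thinned to 600000 reads a cell it was 3.24. Itgb2 had a log2 ratio of 1.36, or 2.25 without AGM cell 23. Itgb7, the beta chain of gut-homing integrins, had a log2 ratio of 3.80 that was 0.28 without E14.5 cell 10. S1pr1, a receptor for egress into blood and lymph, was lower at 15.5 against 83.01 CPM, the former 9.89 CPM without cell 15.

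The remaining lists were nearer to the background. Cytosolic ribosomal protein genes had a median of −0.40 over 77 genes and mitochondrially encoded genes of −0.32 over 11, with 0 and 1 at least 2-fold lower. DNA methylation and PRC2 genes had a median of −0.20 over 12 genes, with 1 past 2-fold each way. BCL2 family genes had a median of −0.61 over 12, with 5 at least 2-fold lower and 1 higher, but of 0.70 against AGM cells 1 to 12 only. Glycolysis genes had a median of 0.47 over 15, with Pfkl and Pgk1 at least 2-fold higher, at 598.3 against 248.2 CPM and 759.8 against 368.6 CPM.

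**Figure D5:**
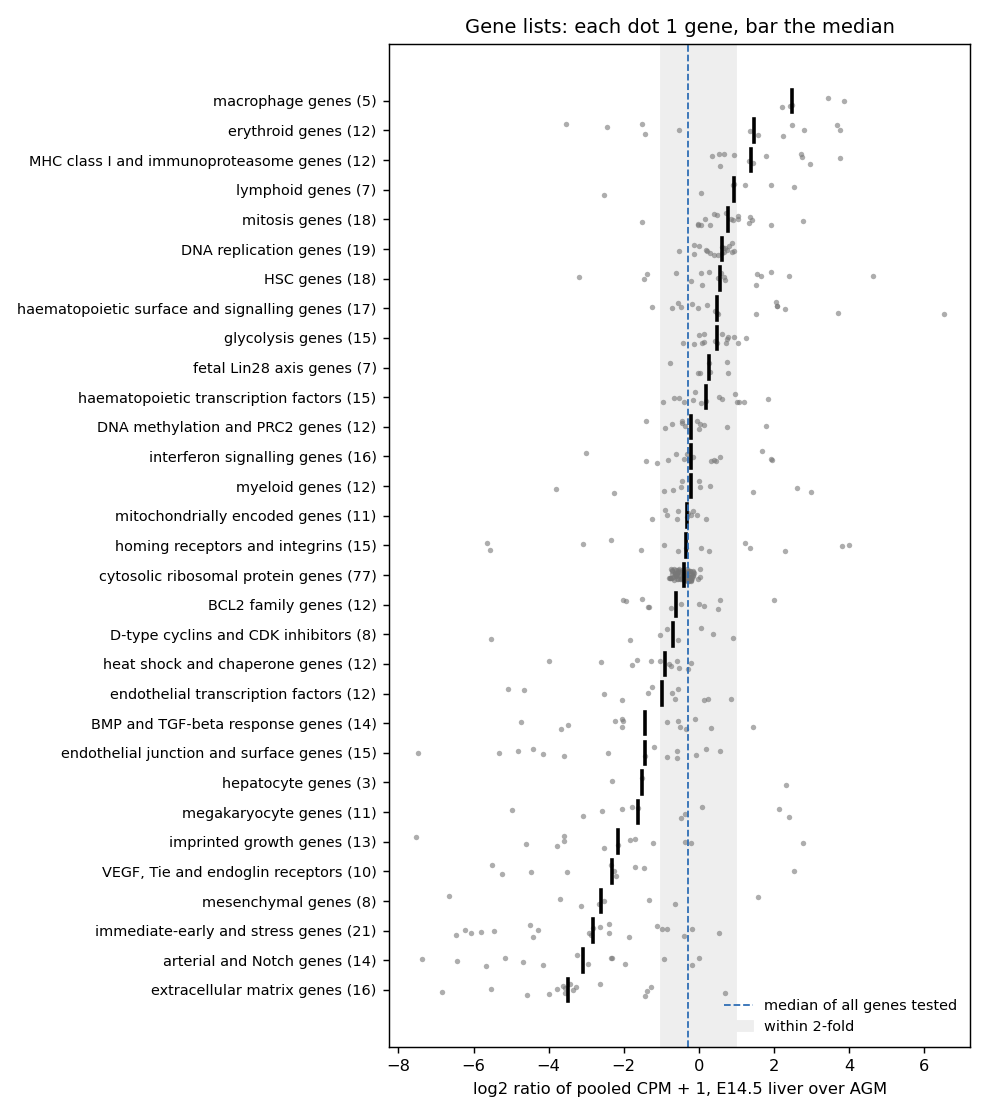
Log2 ratio of pooled CPM plus 1, E14.5 liver over AGM (x axis), for each tested gene of the 31 lists (y axis, number of tested genes in brackets). Each dot is 1 gene and each black bar the median of a list. The dashed line marks the median of all genes, −0.28, and the shaded band the range within 2-fold. Matrix, Notch and immediate-early lists have medians of −3.50, −3.09 and −2.82.

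Mpo and Flt3, genes of myeloid and lymphoid progenitors, were read in most of the E14.5 cells. Mpo, the myeloperoxidase of granule-forming progenitors, ran from 0 over 500.8 to 3417 CPM in E14.5 cells and from 0 over 68.5 to 936.8 CPM in AGM cells. The pooled values were 1023 and 167.4 CPM. Flt3, a receptor of multipotent and lymphoid progenitors, had 194.7 and 51.1 CPM, with reads in 9 of 12 and 22 of 48 cells. Both genes were read in 8 of 12 E14.5 cells. Mpo was read in 9 of 12 E14.5 cells, and all 4 cells with reads of Cd48 were among them. Cells 5, 9 and 14, which had the most Procr, had 0, 0.605 and 0 CPM of Mpo. In AGM, Mpo and Procr were read together in 28 of 48 cells. Cell 9 had the highest Slamf1 of the kept cells, and cell 14 the highest Ly6a, at 559.6 CPM.

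Other lineage lists were mixed. Of 12 myeloid genes, 3 were at least 2-fold higher and 2 lower, with a median of −0.22. The median cell of either group had reads of 6 of them, and Elane and Cebpa had too few reads to enter. Cebpb, an inducible myeloid factor, was lower at 43.8 against 214.8 CPM, the former 23.05 CPM without cell 9. Of 7 tested lymphoid genes, 3 were higher and 1 lower, with a median of 0.93, and Rag2 had too few reads to enter. With 1 cell left out that median ranged from 0.82 to 1.20. Lat, among the 3, had a log2 ratio of 1.23. It was 0.05 without E14.5 cell 11, 0.50 after thinning and 2.10 without AGM cell 39. Il7r, the gene at the median, was at −2.03 without E14.5 cell 6 and 1.70 without AGM cell 30. Of 11 megakaryocyte genes, 2 were higher and 6 lower, with a median of −1.62 that was −0.52 without AGM cell 23. Vwf, a clotting protein of endothelium and platelets, was read in 39 of 48 AGM cells at a median of 115.8 CPM, and of the E14.5 cells in cell 9 alone, at 62.97 CPM.

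Markers of other cells that a sort could admit were summed per cell. Of 10 macrophage genes 5 passed the read minimum, and all 5 were at least 2-fold higher in E14.5 liver. Timd4 had no AGM read and passed that minimum through E14.5 reads alone. The count of 5 thus partly follows from the read minimum. The summed level of the 9 listed genes with counts ran from 0 over 95.9 to 991.7 CPM in E14.5 cells and from 0 over 0 to 258.1 CPM in AGM cells. The median E14.5 cell had reads of 1 of the 5 tested genes. No read of C1qa, C1qb or C1qc was found in 9 of 12 E14.5 cells. Cd68, another tested gene, had a log2 ratio of 2.22. Adgre1, a defining macrophage marker, had too few reads to enter. Of the E14.5 cells, cell 7 alone had reads of C1qa, C1qc and Timd4, and the list's median of 2.49 was 0 without that cell and 3.41 without AGM cell 41. Gfi1b moved with cell 7 too, and the part of macrophage RNA in that value was not tested.

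Erythroid genes are a description, since the choice of cells used Slc4a1. Of 12 tested, 7 were at least 2-fold higher and 4 lower, with a median of 1.46 that was 0.18 without E14.5 cell 9. Hba-a1 was read in every kept E14.5 cell, between 1.39 and 151.6 CPM, and in 13 of 48 AGM cells, with a log2 ratio of 3.68 that was 4.71 without AGM cell 36. Klf1, the erythroid master factor, was read in E14.5 cells 9 and 10, at 65.4 and 97.7 CPM, and its log2 ratio was 3.09 without cell 9 and 2.82 without cell 10. Car2, a carbonic anhydrase, had 1277 and 269.2 CPM. With all 16 E14.5 cells the log2 ratio of Hba-a1 was 12.06, that of Klf1 went from 3.75 to 7.63, and that of Car2 from 2.24 to 3.26. Hbb-y, an embryonic globin gene, had 1 read in E14.5 liver against 11.2 CPM in AGM and 279.1 CPM at E12.5. Adult globin genes come in near-identical copies, and how their reads were divided is uncertain. With all 16 E14.5 cells the erythroid median was 6.10.

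Mesenchymal and hepatocyte genes were low in most cells. The mesenchymal genes summed to between 0 and 823.3 CPM with a median of 0 over E14.5 cells, and to between 0 and 809.8 CPM with a median of 4.95 CPM over AGM cells. Of 8 tested, 6 were at least 2-fold lower and 1 higher, with a median of −2.60. Acta2, smooth muscle actin, had 100.3 CPM in AGM from 17 cells and no read in E12.5 or E14.5 liver. Pdgfrb, a defining marker, had reads in 1 AGM cell. The 6 hepatocyte genes of 11 that had counts summed to at most 33.7 CPM in an E14.5 cell and 156.5 CPM in an AGM cell. Of these, 3 were tested, and Ttr and Apoa2 had too few reads to be tested.

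The leading genes were those with the largest pooled ratios among genes detected in 50% or more of the cells on their higher side and not resting on 1 cell. Coordinates are of the mm10 build. On the E14.5 side, Il2rg (chromosome X, 101264378 to 101268255), the shared gamma chain of interleukin receptors, was read in 11 of 12 cells, at a median of 422.9 CPM. AGM cells had reads in 26 of 48, at a median of 0.675 and at most 347.4 CPM, and 10 E14.5 cells lay above all of them. Pooled Il2rg was 455.9 CPM (445.6 to 466.4) in E14.5 liver and 46.98 CPM (45.3 to 48.7) in AGM, with 334.6 CPM at E12.5. Ptprcap (chromosome 19, 4153604 to 4156751), a partner of CD45, was at 636.6 and 75.3 CPM. Bin2, a membrane-shaping protein of leukocytes, was at 479.4 and 58.1 CPM.

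Ddx4 (chromosome 13, 112598333 to 112652475), the germ cell helicase known as Vasa, had the largest ratio of the 12 leading E14.5 genes, at 68.5 against 1.11 CPM. It was read in 6 of 12 E14.5 cells, 4 of 16 E12.5 cells and 2 of 48 AGM cells. Ankrd37 and Pdk1, both known hypoxia-responsive genes, had 96.1 against 5.18 CPM and 141.3 against 12.9 CPM. Pdk1 (chromosome 2, 71873224 to 71903858), a kinase that holds pyruvate out of the citrate cycle, had reads in 11 of 12 and 18 of 48 cells. Clec4e, Prr12, Tapt1, Nsl1, D3Ertd751e and Cd52 completed the leading genes, at log2 ratios between 2.92 and 3.71.

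By the share of cells with a read, 9 genes (0.0631%) were at least 50 points higher in E14.5 liver and 93 (0.652%) at least 50 points lower. Tbc1d10c, a GTPase regulator of lymphocytes, was among the genes with the largest gain, with reads in 12 of 12 and 21 of 48 cells at 478.3 and 71.2 CPM. Wfdc17 was read in 11 and 17 cells and Smim6 in 10 and 17. On the AGM side, Skil, a repressor of SMAD factors, was read in 37 AGM cells and no E14.5 cell. Ppp1r15a, a stress-induced phosphatase subunit, was read in 44 AGM and 5 E14.5 cells, with a log2 ratio of −3.27 that was −4.40 without E14.5 cell 5 and −1.04 with all 16 E14.5 cells.

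Clu (chromosome 14, 65968483 to 65981547), which encodes the secreted chaperone clusterin, had the largest log2 ratio of the leading AGM genes. It was read in 36 of 48 AGM cells at a median of 107.6 CPM and in no E14.5 cell, so AGM was at least 1208-fold higher. Crip2, a LIM protein of vascular cells, was at least 984-fold higher at 181.9 CPM from 27 cells. Lmna, which encodes the nuclear lamins A and C, was read in 33 AGM cells and no kept E14.5 cell, and was at least 671-fold higher. S100a16 had 1 read in E14.5 liver against 148.04 CPM, a ratio of 2403 (431 to 94910). Mogat2 had no E14.5 read and was at least 641-fold higher in AGM. Pdlim4 and Prodh, likewise without an E14.5 read, exceeded the floor by at least 508-fold and 448-fold. These bounds hold for the 12 kept E14.5 cells, and 4 of the genes had more reads in the E14.5 cells that were left out. With all 16 E14.5 cells the log2 ratios went from −7.52 to −4.23 for Crip2, from −6.97 to −1.47 for Lmna, from −7.13 to −1.93 for S100a16 and from −6.39 to −1.12 for Prodh.

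Plk2, a polo-like kinase induced by serum and stress, was read in 40 of 48 AGM cells at a median of 161.1 CPM and in 1 E14.5 cell at 3.68 CPM. Its pooled level was 228.3 CPM (224.5 to 232.1) against 0.370 CPM (0.136 to 0.805), with 8.35 CPM at E12.5. Its promoter window is shown because, of the leading genes with a window, it alone held a full cAMP response element, TGACGTCA, which 2.03% of all genes with a window hold. Windows were had for 7 of the 12 leading E14.5 genes and 8 of the 12 leading AGM genes. The Plk2 window lies at chr13:110394794-110395093 on the plus strand (RefSeq, GRCm38.p6). The capitals mark first an ISRE core on the opposite strand, from base 32, and then that element.
Plk2: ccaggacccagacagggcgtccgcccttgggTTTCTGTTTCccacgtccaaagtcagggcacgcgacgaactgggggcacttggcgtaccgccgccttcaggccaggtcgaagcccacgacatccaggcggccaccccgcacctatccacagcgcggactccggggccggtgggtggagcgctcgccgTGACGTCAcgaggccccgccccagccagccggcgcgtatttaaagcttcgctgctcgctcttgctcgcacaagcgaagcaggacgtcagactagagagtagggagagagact

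Of the 18 immediate-early genes with a window, 2 held the same element, Dusp1 and Btg2. Of 15 mitosis genes with a window, Aurka, Cdc20, Mki67 and Cenpf held an ETS core, CCGGAAG on either strand (26.7%), against 9.93% of all genes with a window. These are shares of few genes, given as a description.

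Beside E12.5, the genes took different courses. Hes1, Cldn5, Mmp2, Egr1, Nr4a1 and Plk2 were at 10.97, 0.105, 0, 2.36, 5.14 and 8.35 CPM in E12.5 liver, far below their AGM level. Ptprcap and Selplg, at 951.2 and 329.9 CPM, were already above their E14.5 level. Igf2 and Mpo lay between their end points, at 286.7 and 290.6 CPM. The E12.5 gate included EPCR and the E14.5 gate did not, so age and gate cannot be told apart here either.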

How the data were processed

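RNA of single cells was sequenced, 1 cell per well of a 96-well plate, with 12 cycles of PCR per the labels' protocols. The authors deposited a table of read counts per gene and cell. The submitters' processing notes name FastQC, Trimmomatic 0.36, STAR, HTSeq and the mm10 build. Their options and the annotation are not given in the sources used here. No molecular identifiers are named, so intervals and floors cover counting error only.

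Of 19949 rows, 113 shared a symbol and were summed, which left 19836 genes. All 96 columns matched a cell. Reads were scaled to CPM per cell and pooled per group. A gene was tested with at least 30 reads over the 60 cells. Ratios were log2 of pooled CPM plus 1, and a 2-fold difference was counted. A group at 0 was set at 3 reads over the group. Doublets were not called, with 1 cell sorted per well. Coordinates came from GENCODE release M21 for 17745 genes matched by identifier.

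The cells, gene lists and naming rule were chosen with earlier results of these data known. The rule names the sort markers and at most 5 genes past 2-fold per list. It adds 12 leading genes per direction that no single cell moved by over 1.5 times. Last come 6 genes per direction by the share of cells with a read after thinning. Other genes named were chosen after their values were seen. Each cell was left out in turn, and scaling, pooling, depth, filters and the Slc4a1 limit were varied. The comparison with AGM cells 1 to 12 was added after seeing the data. Python 3.11.15, numpy 2.4.6, pandas 2.3.3, scipy 1.17.1 and matplotlib 3.10.9 were used.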

Additional observations from a re-analysis of the deposited data

How the results depend on the processing

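The counts of genes past 2-fold stayed within 1.5 times in 9 of 10 recomputed values each and moved with 10 CPM added, to 1063 higher and 1143 lower. Of the list medians, 279 values stayed within 1.5 times, 30 moved and 1 changed sign over the lists and the same alternatives. A change of sign was counted only where the main median was past 2-fold. Smaller medians that changed sign count as stayed or moved. The BCL2 median, which went from −0.61 to 0.70 against AGM cells 1 to 12, was counted as moved. A limit of 10 CPM on Slc4a1, a limit on it in AGM cells and a minimum of 2000 genes kept the same 12 and 48 cells, so these 3 settings show nothing on stability and are not counted. With 10 CPM added they were −1.58 for VEGF and Tie receptors, −0.93 for Notch, −1.21 for matrix, −1.68 for immediate-early, −1.07 for imprinted and −0.44 for BMP and TGF-beta response genes. They were then −0.34 for megakaryocyte, 0.74 for erythroid, −0.25 for hepatocyte, 1.36 for macrophage and −0.61 for mesenchymal genes. The added value shrinks ratios of low genes by construction. With no minimum on reads the erythroid median was 0.26 and the mesenchymal −1.93. With all 16 E14.5 cells the erythroid median was 6.10, and Hbb-bh1 and Hemgn changed sign to 6.70 and 6.08. Without the deepest cell of each group the junction median was −2.06. Against AGM cells 1 to 12 only, chosen after seeing the data, medians were −2.97 for VEGF and Tie receptors, −4.33 for Notch, −2.10 for endothelial transcription factors, −2.17 for BMP and TGF-beta, 0.70 for BCL2, 2.07 for erythroid and −3.40 for mesenchymal genes. The hepatocyte median of 3 genes changed sign to 2.32. The cause was not tested.

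Leaving out 1 cell at a time, medians ranged from −2.98 to −2.16 for VEGF and Tie receptors, from −2.27 to −1.28 for junction, from 0.74 to 1.54 for MHC and from −2.02 to −1.01 for BMP and TGF-beta genes. They ranged from −1.79 to −0.52 for megakaryocyte, from 0.18 to 1.76 for erythroid and from 0 to 3.41 for macrophage genes. Named genes past 2-fold that changed sign ranged from −0.48 to 2.16 (Bak1), −0.24 to 4.10 (C1qa), −2.09 to 3.81 (C1qc), −2.31 to 2.41 (Epor), −0.61 to 2.25 (Prdm16), −0.43 to 1.71 (Smad1) and −0.33 to 1.56 (Tapbp). At a limit of 10 CPM in place of 1 read, Cdh5 was detected in 0% of E14.5 and 60.4% of AGM cells. The 12 E14.5 cells limit what can be shown: a gene with no read may still be read in up to 25% of such cells. No paired analysis was possible because the cell numbers only name cells and the results come from no test.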
